A study of Mus musculus with 6 samples.

Results

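Rhobtb1, Cul3 and 5 genes of the cGMP pathway of vascular smooth muscle (Pde5a, Pde3a, Prkg1, Npr1 and Npr3) were followed through aortic arches of atherosclerosis-prone mice, as 7 of the 14298 genes with values. They were chosen by name: Rhobtb1 was chosen from its knockout against control difference, where it had the seventh smallest p-value among the higher genes, and the others for their place in the pathway, with that comparison known. The genotype differences of these 7 genes are therefore descriptions and carry no test. All animals were adult C57/BL6 mice without apolipoprotein E and with floxed Rbpj, whose protein carries Notch signals to DNA. The 3 control libraries came from ApoE-/-;RBPJflox/flox mice with no recombinase, and the 3 knockout libraries from ApoE-/-;RBPJflox/flox;Cdh5-CreERT mice. Cdh5-CreERT is a tamoxifen-activated recombinase under the promoter of the endothelial cadherin gene, so it is directed to endothelium and not to smooth muscle. Both genotypes received tamoxifen for 1 week at 8 weeks old and then a high-fat diet for 6 weeks. PolyA RNA of the whole arch was sequenced, so each level below is a mixture over endothelium, smooth muscle, adventitia and plaque cells.

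Cyclic GMP is the messenger through which nitric oxide and natriuretic peptides relax vascular smooth muscle. Nitric oxide from the endothelium acts on soluble guanylyl cyclase, natriuretic peptides act on the receptor cyclases Npr1 and Npr2, and the cGMP they make activates protein kinase G, encoded by Prkg1, which lowers calcium and the calcium sensitivity of contraction. Phosphodiesterase 5, encoded by Pde5a, breaks cGMP down. RhoBTB1 is a protein with BTB domains that binds cullin-3, the scaffold of a ubiquitin ligase, and in smooth muscle it brings phosphodiesterase 5 to that ligase for degradation; Rhobtb1 is a known target of the nuclear receptor PPAR gamma. This control is exerted on the protein, which RNA levels do not measure.

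The promoters of the genes are shown because the deleted factor and several candidate regulators bind short DNA motifs. RefSeq on GRCm38.p6 gave 9 promoter windows for 6 of the 7 genes (Pde3a had none), each reaching from 250 bases before a start site to 50 after it. Both strands were searched for the Rbpj site TTCCCAC, the E-box CACGTG read by clock factors, the nuclear receptor half-site AGGTCA, the cAMP response element TGACGTCA and the CArG box of smooth muscle genes. Of all 32851 promoter windows in the table, 6.38% held the Rbpj letters, 7.15% the E-box, 16.3% the half-site, 1.79% the cAMP response element and 1.63% a CArG box. The 250 bases before 2 of the 3 start sites of Rhobtb1 and before those of Npr1 and Pde5a are printed 5′ to 3′ on the strand of the gene, with the matched letters in capitals. They lie at chr10:69208302-69208551 (+) and chr10:69212407-69212656 (+) for Rhobtb1, chr3:90465867-90466116 (-) for Npr1 and chr3:122728908-122729157 (+) for Pde5a.
Rhobtb1, first start site: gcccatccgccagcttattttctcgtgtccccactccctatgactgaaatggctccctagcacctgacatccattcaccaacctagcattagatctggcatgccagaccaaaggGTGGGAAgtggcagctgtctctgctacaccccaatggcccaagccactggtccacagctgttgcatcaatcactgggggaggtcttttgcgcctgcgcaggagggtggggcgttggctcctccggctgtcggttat
Rhobtb1, second start site: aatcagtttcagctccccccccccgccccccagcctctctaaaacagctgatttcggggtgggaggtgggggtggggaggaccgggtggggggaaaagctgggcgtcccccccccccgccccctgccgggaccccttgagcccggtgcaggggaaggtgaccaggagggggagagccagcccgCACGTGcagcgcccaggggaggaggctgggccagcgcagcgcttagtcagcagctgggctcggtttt
Npr1: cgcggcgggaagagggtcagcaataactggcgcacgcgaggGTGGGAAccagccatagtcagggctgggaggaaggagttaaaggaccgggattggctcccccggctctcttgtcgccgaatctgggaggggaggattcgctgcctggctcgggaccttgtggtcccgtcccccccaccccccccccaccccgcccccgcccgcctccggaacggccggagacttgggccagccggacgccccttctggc
Pde5a: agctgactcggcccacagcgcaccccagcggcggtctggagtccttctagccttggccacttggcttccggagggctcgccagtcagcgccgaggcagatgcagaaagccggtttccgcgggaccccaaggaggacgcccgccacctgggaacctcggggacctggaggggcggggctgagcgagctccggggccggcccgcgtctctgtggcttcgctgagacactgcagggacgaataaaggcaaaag
The first Rhobtb1 promoter held the Rbpj letters beginning 136 bases before the start site, and the second held an E-box beginning 67 bases before it. Npr1 held the Rbpj letters beginning 209 bases before its start site. The third Rhobtb1 window and those of Pde5a, Cul3, Npr3 and Prkg1 held none of the 5 motifs, and no window held more than 1. A match is a run of letters and not a bound site.

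Values are given as normalised CPM, that is reads scaled to a common library size. The shallowest library held 5904504 reads and the deepest 10072495, and libraries are called by the number in their column name (S591, S592 and S594 in the control group; S595, S598 and S599 in the knockout group). Rbpj itself stood at 189 ± 13.2 in control and 193 ± 21.7 in knockout arches (SD, n = 3 each), which in whole-arch RNA does not check a deletion in endothelium. Libraries differed in their levels of marker transcripts of cell types and other tissues. The 18 smooth muscle markers, all detected in every library, summed to 17606 to 30516 in the controls and 31895 to 42146 in the knockouts, with 18 of 18 higher on average in the knockouts. The 12 macrophage markers were lower (sums of 5821 to 9630 against 2507 to 5800), the 12 endothelial markers spanned 1298 to 1353 against 1057 to 1576, and the fat markers summed to 2219 to 4871 against 1665 to 2564, with the 4871 in control S591. The fibroblast markers summed to 9165 to 13822 against 6630 to 9149, with 9 of 10 lower on average in the knockouts, and the cardiac and skeletal muscle markers were highest in S591 (74.5, against 13.8 to 46.6 elsewhere). Transcripts of thymocytes were highest in S598 and S599 (sums of 220.6 and 97.9, against 30.7 to 44.5 elsewhere), and 4 airway epithelium markers summed to 2.31 to 8.18 against 62.0 to 83.0. In whole tissue, fewer cells of a type and less RNA per cell cannot be told apart.

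Rhobtb1 (ENSMUSG00000019944) had the largest difference of the 7 genes. It stood at 56.1, 38.3 and 41.2 in control S591, S592 and S594, and at 88.6, 102.7 and 91.3 in knockout S595, S598 and S599. Every knockout library lay above every control library, and the highest control, S591, was the library nearest to them. The group means were 45.2 ± 9.53 and 94.2 ± 7.49 (SD, n = 3 each), 2.09-fold apart, or 1.06 on the log2(value + 1) scale with a standard error of 0.15 and a 95% interval of 0.70 to 1.42. The libraries held 285 to 1065 reads of the gene. Without S598 and S599, the libraries richest in thymocyte transcripts, only knockout S595 is left against the 3 controls, and the difference was 0.98, with no adjusted call by limma.

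**Figure D1:**
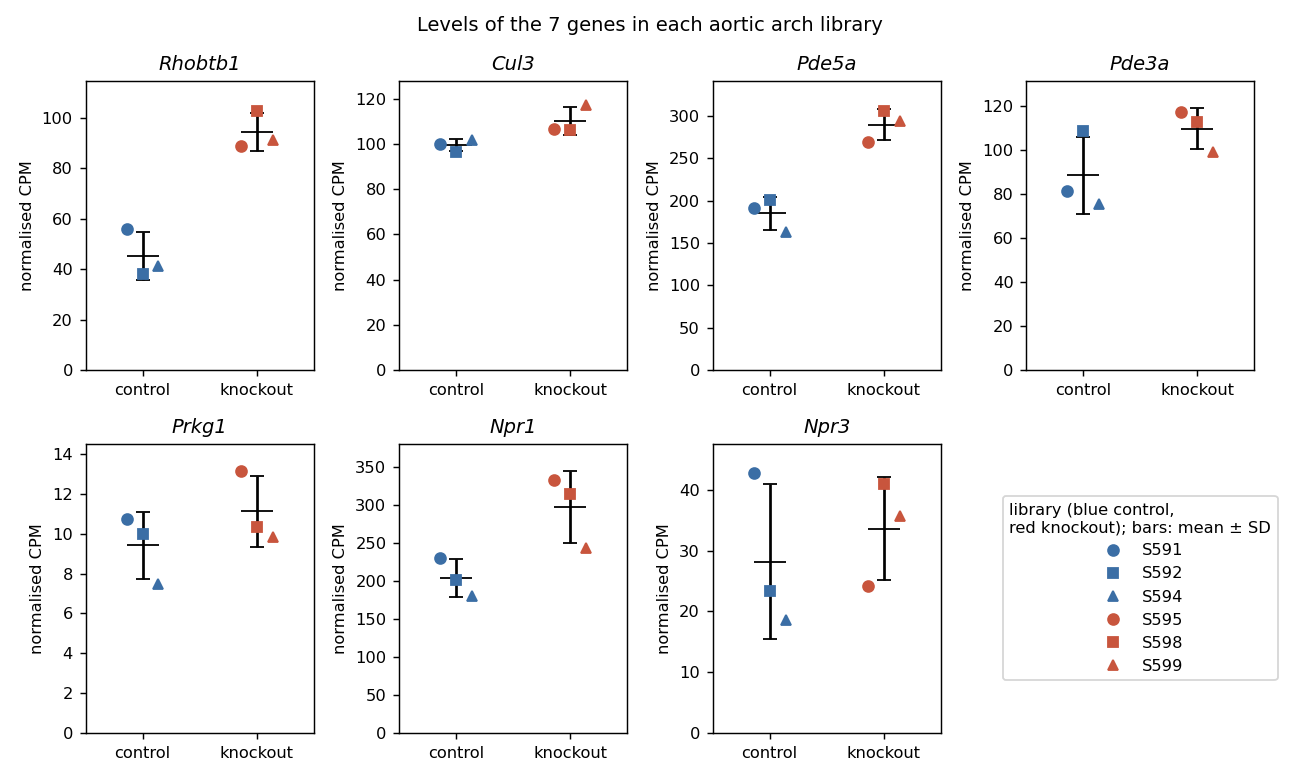
Normalised CPM (vertical axes, each from 0) of the 7 genes in the 3 control (blue) and 3 knockout (red) libraries, one panel per gene, with group mean and SD as bars and a marker shape per library. For Rhobtb1, Cul3, Pde5a and Npr1 the red points lie above all blue points, with 45.2 against 94.2 for Rhobtb1, while the groups of Pde3a, Prkg1 and Npr3 overlap.

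The other RhoBTB genes had differences near 0. Rhobtb2, a relative that also binds cullin-3, stood at 26.5 ± 4.47 and 24.9 ± 2.92 (SD, n = 3 each), a log2 difference of -0.08 (limma, adjusted p = 0.814). Rhobtb3, the more distant member of the family, stood at 31.2 ± 5.68 and 32.0 ± 3.38 (log2 difference 0.05, limma adjusted p = 0.900). The ratio of Rhobtb1 to Rhobtb2 was between 1.53 and 1.79 in the control libraries and between 3.19 and 4.68 in the knockout libraries, 2.26-fold higher on average. The ratio of Rhobtb1 to Rhobtb3 was 2.04-fold higher, again with no overlap between the groups. These ratios contain the Rhobtb1 values by which the gene was chosen, so they describe how far it departed from its family and are not a test.

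Cul3 (ENSMUSG00000004364), the ligase scaffold to which RhoBTB1 binds, showed the smallest difference of the 7. It stood at 100.1, 96.5 and 101.8 in the control libraries and at 106.6, 106.3 and 117.3 in the knockout libraries. The groups did not overlap, but the gap was narrow, from 101.8 to 106.3. The means were 99.5 ± 2.69 and 110.1 ± 6.24 (SD, n = 3 each), a log2 difference of 0.14 with a 95% interval of -0.06 to 0.35. The ratio of Rhobtb1 to Cul3 in CPM was 0.454 ± 0.0920 in control and 0.859 ± 0.0968 in knockout arches, 1.89-fold higher, and the groups did not overlap. This ratio also contains the Rhobtb1 values by which that gene was chosen, so it is a description and not a test.

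Pde5a (ENSMUSG00000053965), the cGMP-specific phosphodiesterase, was the second largest difference. It stood at 191.6, 200.7 and 162.7 in the controls and at 269.4, 306.3 and 293.9 in the knockouts, with 1078 to 3176 reads per library. The lowest knockout library, S595, lay well above the highest control, S592. The means of 185 ± 19.8 and 289.9 ± 18.8 (SD, n = 3 each) were 1.57-fold apart, a log2 difference of 0.65 with a standard error of 0.11 and an interval of 0.38 to 0.92. Rhobtb1 and Pde5a were both higher in the 3 knockout libraries, the comparison from which Rhobtb1 was chosen. Their Pearson correlation over all libraries was 0.93, which contains the genotype difference, and 0.26 after each group's mean was removed. The ratio of Rhobtb1 to Pde5a was 0.245 ± 0.0513 against 0.325 ± 0.0128, and it too contains the Rhobtb1 values by which that gene was chosen.

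Npr1 (ENSMUSG00000027931), the receptor cyclase for atrial and brain natriuretic peptides, stood at 229.8, 201.0 and 180.3 in the controls and at 333.3, 314.4 and 243.6 in the knockouts. Control S591 and knockout S599 were close to each other, and the groups did not overlap. The means were 203.7 ± 24.9 and 297 ± 47.3 (SD, n = 3 each), 1.46-fold apart (log2 difference 0.54, interval 0.19 to 0.89). Npr3 (ENSMUSG00000022206), the clearance receptor that removes natriuretic peptides and has no cyclase domain, stood at 42.7, 23.4 and 18.5 in the controls and at 24.3, 40.9 and 35.8 in the knockouts. Its highest value was a control, S591, and the groups overlapped (28.2 ± 12.8 and 33.7 ± 8.53, log2 difference 0.30, interval -0.43 to 1.03). With S595 as the only knockout library the Npr3 difference was -0.12. Npr2, the receptor for C-type natriuretic peptide, stood at 110.0 ± 13.0 and 138 ± 8.53 with the groups apart (log2 difference 0.33, limma adjusted p = 0.178).

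Pde3a (ENSMUSG00000041741), a phosphodiesterase of cAMP that cGMP inhibits, stood at 81.5, 108.6 and 75.6 in the controls and at 117.6, 112.8 and 99.3 in the knockouts. Control S592 lay above knockout S599, so the groups overlapped, and the means of 88.6 ± 17.6 and 109.9 ± 9.45 (SD, n = 3 each) differed by 0.32 on the log2 scale (interval -0.03 to 0.67). Prkg1 (ENSMUSG00000052920), the kinase on which the pathway converges, was the lowest of the 7 and rested on only 60 to 107 reads per library. It stood at 10.7, 9.99 and 7.49 in the controls and at 13.2, 10.4 and 9.83 in the knockouts. Only knockout S595 was above all the controls (9.41 ± 1.70 and 11.1 ± 1.79, log2 difference 0.22, interval -0.22 to 0.67).

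Every knockout value lay above every control value in 4 of the 7 genes (Rhobtb1, Cul3, Pde5a and Npr1), beside 11.3% of all 14298 genes. The mean difference was positive for all 7, with a median log2 difference of 0.32, against -0.02 over all genes. By limma with Benjamini-Hochberg adjustment over all genes, 0 of the 7 had an adjusted p below 0.05, beside 0.0210% of all genes in either direction. An unadjusted p below 0.05 was found for 3 of the 7, all higher, beside 8.04% of all genes, and DESeq2 on whole reads recovered from the values called 3 (Rhobtb1, Pde5a and Npr1), beside 2.01% of all genes in that direction. Without control S591, limma called 2 (Rhobtb1 and Pde5a), and 201 of all genes higher. Since these differences were in view when the genes were chosen, the counts describe the set.

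Per kilobase of merged exon length, which lets genes be compared with one another, Npr1 had the highest level of the 7 in control arches (42.6 ± 5.20 CPM per kb). Cul3 (20.4 ± 0.552) and Pde5a (18.8 ± 2.02) came next and did not differ beyond their spread. Rhobtb1 (7.44 ± 1.57) and Pde3a (6.95 ± 1.38) likewise could not be ordered, and Npr3 (3.01 ± 1.36) and Prkg1 (0.867 ± 0.157) were lowest. In the knockout arches the order on this scale was Npr1 (62.1 ± 9.89), Pde5a (29.5 ± 1.91), Cul3 (22.6 ± 1.28), Rhobtb1 (15.5 ± 1.23), Pde3a (8.63 ± 0.742), Npr3 (3.59 ± 0.908) and Prkg1 (1.02 ± 0.165). Pde5a and Cul3, and Rhobtb1 and Pde3a, were then separated by more than their SDs.

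The steps around the 7 genes were described with 8 pathway lists holding 127 further genes with values. By limma 0 of the 127 passed an adjusted p of 0.05 in either direction. At an unadjusted p of 0.05, 20 were higher (8.04% of all genes) and 8 were lower (12.0% of all genes). The groups were apart with the knockouts higher for 27 (11.3% of all genes) and with the knockouts lower for 8 (14.2% of all genes). DESeq2 called 8 of the 127 higher (2.01% of all genes) and 4 lower (4.29% of all genes). The 8 were Gucy1a1, Gucy1b1, Mrvi1, Ppp1r12a, Ppp1r12b, Ppp1r14a, Hspb6 and Rock1, and the 4 were Nos2, Nos3, Gch1 and Enc1. Without control S591, limma called 4 of the 127 higher and 6 lower, and 201 and 468 of all 14298 genes. The median log2 difference of the 127 was 0.03.

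**Figure D2:**
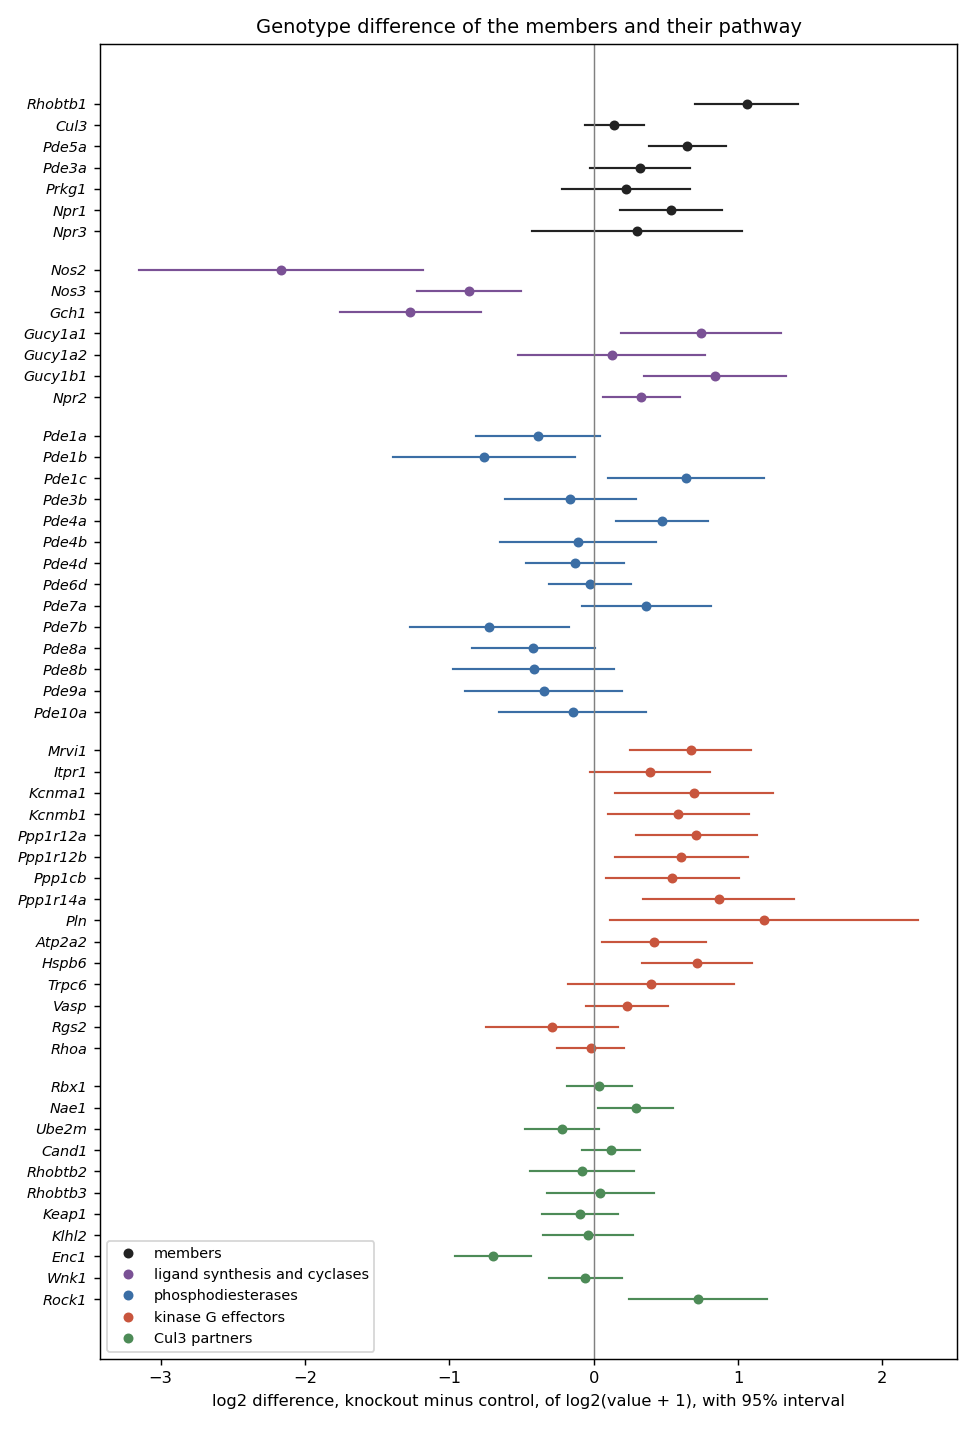
Log2 difference of log2(value + 1), knockout minus control (horizontal axis), for the 7 genes (black) and selected genes around them, as points with 95% intervals from limma. The nitric oxide synthases Nos2 and Nos3 and Gch1 lie left of 0, the kinase G effectors lie mostly right of it, and Rhobtb1 at 1.06 is the largest of the 7.

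Upstream, Nos2, Nos3 and Gch1 of nitric oxide synthesis were lower on average in the knockouts, while Gucy1a1 and Gucy1b1 of its receptor were higher on average. Nos3, the endothelial nitric oxide synthase, stood at 46.6, 44.998 and 47.4 in the controls and at 31.9, 21.5 and 22.7 in the knockouts, lower in every knockout library (46.3 ± 1.22 and 25.4 ± 5.66, SD, n = 3 each, log2 difference -0.86, limma adjusted p = 0.107). Gch1, which makes the tetrahydrobiopterin cofactor of the synthases, stood at 12.8 ± 0.484 and 4.85 ± 1.45 (log2 difference -1.27, limma adjusted p = 0.107). Nos2, the inducible synthase of activated macrophages, stood at 20.7, 48.8 and 61.7 in the controls and at 10.3, 4.87 and 10.3 in the knockouts (log2 difference -2.17, limma adjusted p = 0.107). Of the 12 endothelial markers, 0 had an unadjusted p below 0.05 by limma (8.04% of all genes higher and 12.0% lower). None passed its adjusted test, and their median log2 difference was -0.05. They summed to 1298 to 1353 in the controls and to 1080, 1057 and 1576 in knockout S595, S598 and S599. Their part in the Nos3 values was not tested. The macrophage marker sums given above were lower in the knockout libraries, and their part in the Nos2 and Gch1 values was not tested.

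Soluble guanylyl cyclase is a pair of an alpha and a beta subunit. Gucy1b1, the common beta subunit, stood at 214.0, 173.6 and 114.9 in the controls and at 290.7, 313.1 and 273.0 in the knockouts (167.5 ± 49.8 and 292 ± 20.1, SD, n = 3 each, log2 difference 0.84, limma adjusted p = 0.121). Gucy1a1, its main vascular alpha partner, stood at 271.2, 201.8 and 150.1 in the controls and at 264.7, 402.0 and 364.0 in the knockouts, so that control S591 and knockout S595 overlapped (log2 difference 0.74, limma adjusted p = 0.158). The ratio of the subunits overlapped between the groups, 1.25 ± 0.0745 against 1.18 ± 0.231. The ratio of Nos3 to Gucy1b1 was 0.297 ± 0.102 in control and 0.0872 ± 0.0207 in knockout arches, with no overlap. The smooth muscle marker sums given above were higher in the knockout libraries, and their part in the Gucy1a1 and Gucy1b1 values was not tested. Of the 12 genes of ligand synthesis and cyclases with values, 3 had an unadjusted p below 0.05 in each direction (8.04% of all genes higher and 12.0% lower), and Nppa, Nppb, Nppc and Ostn were not analysed here.

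Among the 14 other phosphodiesterase genes with values, 0 passed the adjusted limma test, and 2 had an unadjusted p below 0.05 in each direction (8.04% of all genes higher and 12.0% lower). Their differences were positive for 3 and negative for 11, where 7470 of all 14298 genes were negative, with a median log2 difference of -0.15. Pde1c, a calcium-activated phosphodiesterase of proliferating smooth muscle, stood at 9.54 ± 1.96 and 15.6 ± 4.45 (SD, n = 3 each) with the groups apart (log2 difference 0.64, limma adjusted p = 0.192). Pde4a, a cAMP phosphodiesterase, stood at 43.8 ± 7.04 and 60.9 ± 5.42, also apart (log2 difference 0.48, limma adjusted p = 0.136). Pde1a, the calcium-activated relative that prefers cGMP, stood at 57.1 ± 13.6 and 42.7 ± 4.12 (log2 difference -0.39, limma adjusted p = 0.293). The ratio of Pde5a to Pde1a was 2.01-fold higher in the knockouts with no overlap. Ratios of Pde5a to Gucy1b1, Prkg1 and Pde3a overlapped between the groups (knockout mean over control mean 0.86, 1.34 and 1.25). Pde7b, a cAMP phosphodiesterase, stood at 17.8 ± 5.47 and 10.1 ± 1.55 with the groups apart (log2 difference -0.72, limma adjusted p = 0.162). Pde3b, the relative of Pde3a found in fat cells, stood at 53.5 ± 14.1 and 46.9 ± 5.58 and was highest, at 67.8, in control S591, the library with the most fat transcripts.

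**Figure D3:**
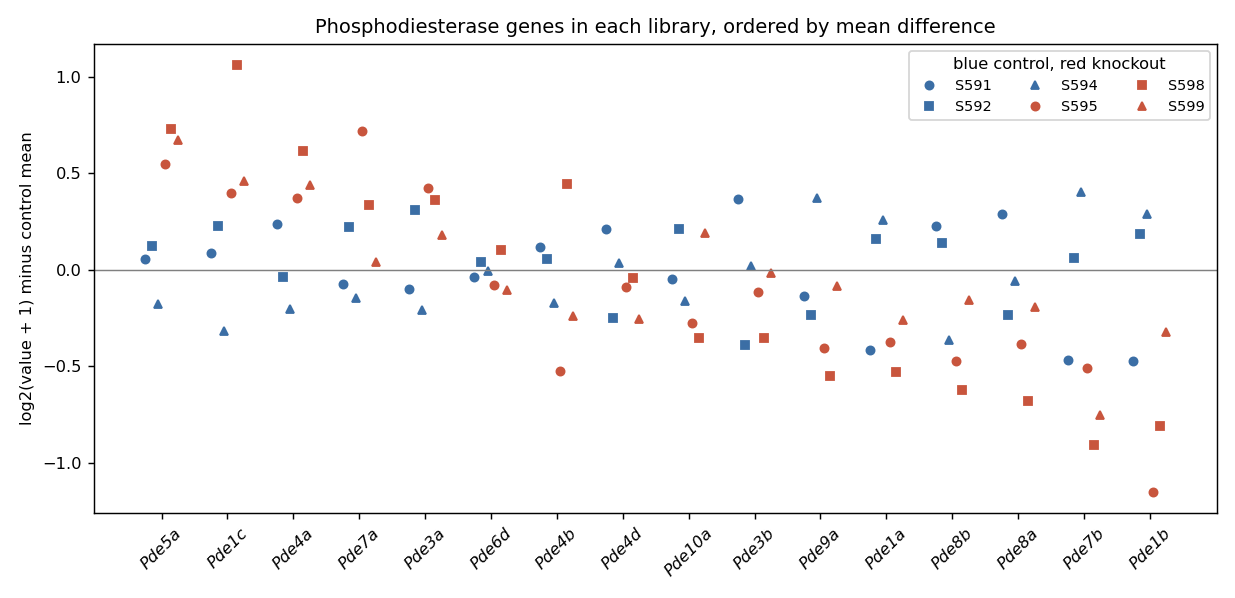
The 16 phosphodiesterase genes, Pde5a and Pde3a among them, ordered by genotype difference, with log2(value + 1) minus the mean of the controls on the vertical axis and 1 point per library (blue control, red knockout). Pde5a stands at the left end with all 3 red points above the blue ones, and 11 of the 14 genes other than Pde5a and Pde3a have a negative difference.

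Downstream, 0 of 15 substrates and partners of protein kinase G passed the adjusted limma test. A positive difference was found for 13 of the 15 (6828 of all 14298 genes), an unadjusted p below 0.05 for 10, all higher (8.04% of all genes), and groups apart with the knockouts higher for 9 (11.3% of all genes). The median log2 difference was 0.59. The smooth muscle marker sums were higher in the same libraries. Of the 18 smooth muscle markers, 12 had an unadjusted p below 0.05 by limma, all higher (8.04% of all genes). Their groups were apart with the knockouts higher for 10 (11.3% of all genes), and their median log2 difference was 0.66. The part of smooth muscle transcripts in the effector values was not tested. Mrvi1, also named Irag1, which links the kinase to the calcium store, stood at 287.8 ± 64.6 and 451.9 ± 37.2 (SD, n = 3 each, log2 difference 0.67, limma adjusted p = 0.127). Kcnma1 and Kcnmb1, the subunits of the large-conductance potassium channel, had log2 differences of 0.70 and 0.59 (limma adjusted p = 0.168 and 0.187). Ppp1r12a, the targeting subunit of myosin phosphatase, stood at 248.7 ± 52.5 and 404 ± 50.03 (log2 difference 0.71, limma adjusted p = 0.121). Its inhibitor Ppp1r14a stood at 40.6 ± 10.2 and 74.6 ± 16.4 (log2 difference 0.87, limma adjusted p = 0.122). Ppp1r12b, the second targeting subunit, had a difference of 0.61.

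Other effectors varied in how far they stood apart. Hspb6, a small heat shock protein that the kinase phosphorylates, stood at 102 ± 14.4 and 169.6 ± 31.7 (SD, n = 3 each, log2 difference 0.72, limma adjusted p = 0.112). Pln, the regulator of the calcium pump, was low and overlapping, at 4.17 ± 3.09 and 10.3 ± 5.63 (log2 difference 1.18, limma adjusted p = 0.213), with its highest value in S598. Vasp, a classic substrate, had a log2 difference of 0.23 (limma adjusted p = 0.341). The 2 with negative differences were Rgs2, a brake on contractile receptors, and Rhoa, the small GTPase that opposes relaxation (-0.29 and -0.02, limma adjusted p = 0.453 and 0.933). Prkg2, Cnga1 and Cnga2 were not analysed here.

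The genes of the machinery around cullin-3 had small differences. The 23 genes of the ligase core and of neddylation, the modification that activates cullins, had a median log2 difference of 0.04, and 1 had an unadjusted p below 0.05 (8.04% of all genes in that direction). That was Nae1, a subunit of the neddylation enzyme (45.9 ± 3.80 and 56.4 ± 4.61, SD, n = 3 each, log2 difference 0.29, limma adjusted p = 0.207), and the next by p was Ube2m at -0.22 (limma adjusted p = 0.319). Rbx1, the RING subunit, stood at 54.2 ± 1.93 and 55.7 ± 3.74. The 7 other cullins had a median of 0.07, with Cul1 at 0.13 and Cul9 at -0.17 beside the 0.14 of Cul3.

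Among 32 other BTB adaptors that bring substrates to cullin-3, the median log2 difference was 0.01, with 1 gene higher and 3 lower at an unadjusted p of 0.05 (8.04% and 12.0% of all genes). Enc1 stood at 43.8, 43.5 and 48.1 in the controls and at 29.6, 24.7 and 28.2 in the knockouts (log2 difference -0.70, limma adjusted p = 0.107). Klhl7 stood at 43.6 ± 9.08 and 59.3 ± 7.88 (SD, n = 3 each, log2 difference 0.45, limma adjusted p = 0.218). Keap1, the adaptor for the antioxidant factor Nfe2l2, and Klhl2, an adaptor for WNK kinases, had log2 differences of -0.10 and -0.04. Their substrates Nfe2l2 and Wnk1 had differences of -0.28 and -0.06. Of 13 genes of cullin-3 substrates and the RhoA pathway, 3 had an unadjusted p below 0.05, all higher (8.04% of all genes). Rock1, the kinase through which RhoA raises calcium sensitivity, stood at 225 ± 55.4 and 369 ± 68.6 (log2 difference 0.72, limma adjusted p = 0.133), and Rock2 had a difference of 0.38 (limma adjusted p = 0.158).

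Pparg, whose product is the known activator of Rhobtb1 in smooth muscle, stood at 56.6, 19.8 and 27.9 in the controls and at 33.6, 22.4 and 43.2 in the knockouts. Its groups overlapped throughout (log2 difference 0.02, interval including 0, limma adjusted p = 0.987), and its highest library was S591, where the fat markers were highest. Of the 12 genes of PPAR gamma and its partners, 0 had an unadjusted p below 0.05 by limma (8.04% of all genes higher and 12.0% lower). The smallest p belonged to Ppard (-0.25, limma adjusted p = 0.265) and Ncoa2 (0.20, limma adjusted p = 0.305).

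Because all 18 smooth muscle markers stood higher on average in the knockouts, each gene was also set against the mean log2 value of the 18 smooth muscle markers in the same library. That mean was itself 0.65 higher in the knockouts, from 0.03, -0.23 and -0.77 in S591, S592 and S594 to 0.43, 0.48 and 0.06 in S595, S598 and S599. Relative to it Rhobtb1 was 0.41 higher, but its groups overlapped, at -0.23, -0.52 and 0.13 in the controls and 0.02, 0.17 and 0.43 in the knockouts. The mean relative difference of Pde5a was 0.0015, but single libraries lay off the markers, at -0.29, 0.03 and 0.26 in the controls and -0.21, -0.08 and 0.29 in the knockouts. That of Npr1 was -0.11. Pde3a, Npr3, Prkg1 and Cul3 were lower relative to the markers (-0.32, -0.35, -0.42 and -0.50), and for Prkg1 the groups did not overlap.

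On this relative scale 0.210% of all genes had every knockout value above every control value, and 47.4% had every knockout value below. None of the 7 genes was apart in the higher direction, while Prkg1 was 1 of 7 in the lower one. Gucy1b1 (0.20) and Ppp1r14a (0.22) were among the genes apart in the higher direction, but the groups of Gucy1b1 overlapped when the reference was Myh11, Acta2, Tagln and Cnn1 alone (0.18). Mrvi1, Ppp1r12a and Kcnmb1 followed the markers closely (0.03, 0.07 and -0.06), and Nos3, an endothelial gene, was 1.51 lower. The mean relative differences of Pde1c, Pde4a and Rock1 were -0.009, -0.17 and 0.08, with overlapping groups for each. With those 4 markers as the reference, the differences of Rhobtb1 and Pde5a were 0.40 and -0.013.

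**Figure D4:**
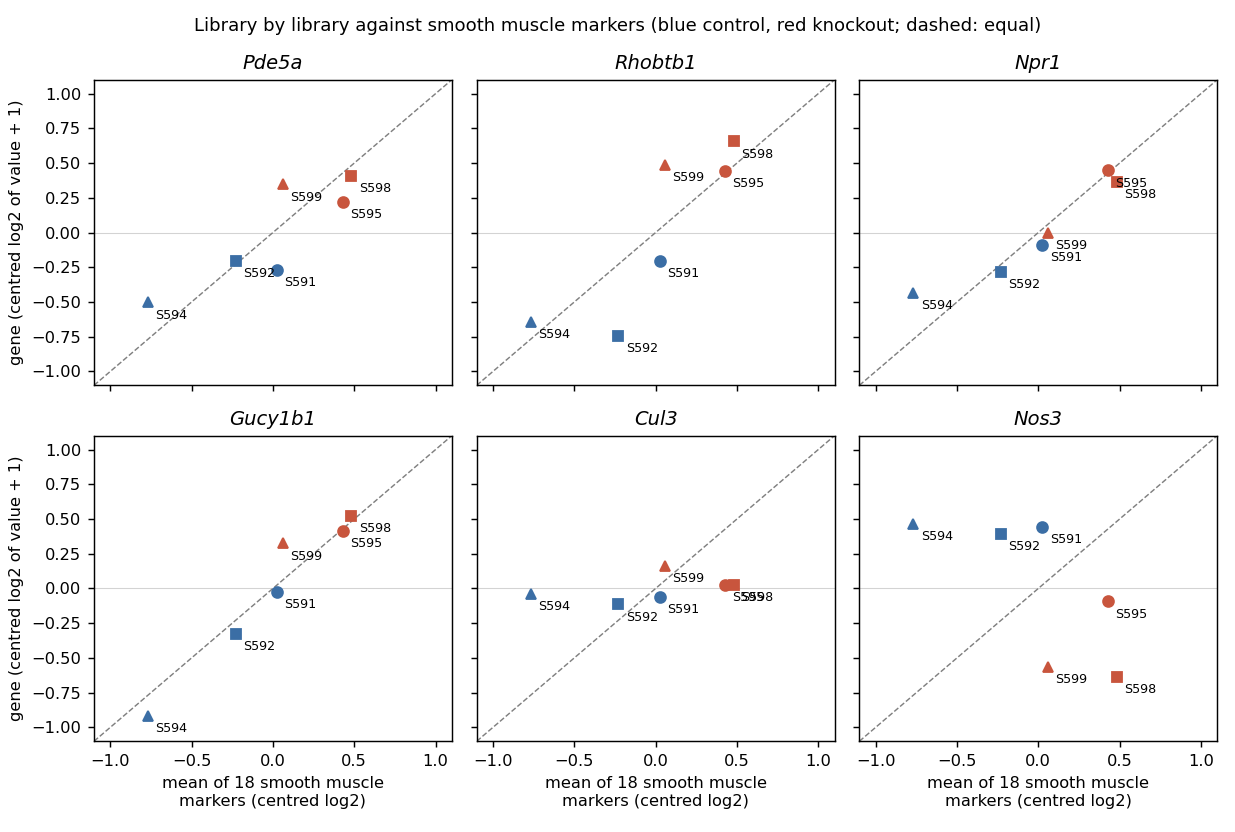
Log2(value + 1) of 6 genes in each library (vertical axis, centred on the mean of the 6 libraries) against the mean of 18 smooth muscle markers (horizontal axis, centred likewise), with control libraries in blue, knockout in red and equality dashed. Cul3 spans little on the vertical axis and Nos3 is lower in the red libraries, while Pde5a scatters about the dashed line, from -0.29 in control S591 to 0.29 in knockout S599, with a mean relative difference of 0.0015.

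Rhobtb1 was also compared by its pattern over libraries with the 11722 genes whose mean was at least 5. The highest Pearson correlations over the 6 libraries, which contain the genotype difference, were those of Nrbp2 (0.999), Zfyve28 (0.995), Arhgef3 (0.992), Tppp3 (0.989) and Ccdc167 (0.988). Nrbp2 stood at 114.2, 101.1 and 102.6 in the controls and at 133.5, 141.7 and 134.6 in the knockouts. After each group's mean was removed, Bbs4, Cxadr and Mrpl21 (0.998 each) and Nrbp2 (0.995) were among the 5 highest. With 6 points from 2 groups and so many genes ranked, these values describe likeness alone. None of the 18 clock genes passed the adjusted limma test (0 of 18). A positive difference was found for 13 and a negative one for 5 (6828 and 7470 of all 14298 genes). At an unadjusted p of 0.05 by limma, 10 were higher and 1 lower (8.04% and 12.0% of all genes). Nr1d2, a clock repressor, stood at 80.9, 76.8 and 101.8 in the controls and at 202.3, 171.8 and 186.5 in the knockouts (log2 difference 1.11, limma adjusted p = 0.0644), and Per3 had a difference of 1.54 (limma adjusted p = 0.107). The 18 clock genes summed to 691 to 832 in control and 1140 to 1327 in knockout libraries, and their part in the Rhobtb1 difference was not tested.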

How the data were processed

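PolyA RNA of mouse aortic arches (RNA integrity number at least 7.9, per the labels' protocols) was sequenced from 3 control and 3 knockout samples. Per the submitters' processing notes, the tools were cutadapt 1.6.1, Bowtie 0.12.7, RSEM 1.16, CASAVA 1.8, edgeR and limma and the build was NCBIM37, with no roles named. For the annotation and the strand setting, the sources used here give nothing. What the authors deposited is a linear normalised signal per gene and library, in form (reads + 0.5) scaled by library size to CPM. At a tolerance of 0.01, 100% of values gave whole reads, and 1 read was worth 0.0964 to 0.178 CPM. Columns name a group and library number, not an individual sample. Nothing says that the replicates are separate animals, so their spread may be technical.

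Symbols were found by Ensembl identifier for 13828 of 14298 genes. Exon lengths come from an annotation on another build than the values, and promoters from RefSeq on GRCm38.p6. The main test was limma 3.58.1 (R 4.3.3) on log2(value + 1), with the variance trended on intensity, a scale that understates changes of low genes. Two-sided p-values were adjusted by Benjamini-Hochberg over all 14298 genes, and a filter of at least 1 in 3 libraries removed 0. Alternatives were DESeq2 1.42.0 and edgeR 4.0.16 (quasi-likelihood) on recovered reads, other pseudocounts, filters, scalings and variance models, array weights, and each library left out. The fits without S598 and S599 and without S591 and S599 were added after the data were seen. The limma fit was also run on simulated data with the same variability setting for every gene and no shift in tissue content. That run does not give its error rate on these libraries.

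The 7 genes and all gene lists were chosen with earlier results of these data known. The rule for named genes took the 7, 25 pathway genes given by name, every gene past the threshold and the 2 with the smallest p in each list (marker lists are given as sums), and the 5 most like Rhobtb1 by each measure. Of the genes this rule takes, 1 is not reported here. Nos2, Ppp1r12b and Ppp1r14a were named after their values were seen.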

Additional observations from a re-analysis of the deposited data

How the results depend on the processing

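No paired analysis was possible because the columns carry library numbers and not the replicate numbers of the labels. Over 18 alternatives each, the differences of Rhobtb1, Cul3, Pde5a, Pde3a, Prkg1 and Npr1 were positive in 18 and that of Npr3 in 17, smooth muscle scaling apart. The other filters and the fit without an intensity trend cannot move a difference, so their signs were fixed in advance. With 1 library left out the log2 differences ran from 0.95 to 1.22 for Rhobtb1, 0.10 to 0.17 for Cul3, 0.56 to 0.71 for Pde5a, 0.22 to 0.48 for Pde3a, 0.08 to 0.32 for Prkg1, 0.45 to 0.67 for Npr1 and 0.05 to 0.64 for Npr3. Centring on the library median moved Cul3 to 0.21. Without S598 and S599, Prkg1 was at 0.46 and Npr3 at -0.12, and without S591 and S599, Npr1 was at 0.76. These pairs leave 1 knockout library, or 2 of each group. Relative to the 18 smooth muscle markers, the differences were 0.41 (Rhobtb1), -0.50 (Cul3), 0.0015 (Pde5a), -0.32 (Pde3a), -0.42 (Prkg1), -0.11 (Npr1) and -0.35 (Npr3), and relative to 4 markers 0.40, -0.52, -0.013, -0.34, -0.44, -0.13 and -0.36.

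The number of pathway genes called depended on the test. Against 0 in each direction, array weights called 6 higher and 5 lower (288 and 723 of all 14298 genes), DESeq2 8 and 4 (287 and 613), and the fit without S591 and S599 5 and 5 (248 and 748), while edgeR called 0 of all genes. With 1 library left out the counts ran from 0 to 4 higher and from 0 to 6 lower, with 4 and 6 without control S591. Of the 7 genes, array weights and DESeq2 called 3 each and the fit without S591 called 2. Over all genes the limma count of 3 higher and 0 lower became 201 and 468 without S591. The count of the 7 genes with the groups apart was 4 to 5 with 1 library left out (13.18% to 20.84% of all genes). It was 6 without S598 and S599 (26.63% of all genes) and 7 without S591 and S599 (27.03% of all genes). Depth limits Prkg1 most, at 60 to 107 reads per library.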
